A study of Homo sapiens with 12 samples.

Results

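Expression of DTYMK (thymidylate kinase) and 8 further enzymes that make or turn over deoxynucleotides was examined in 2 HEK293 lines carrying inducible transgenes. The 9 genes were DTYMK, TYMS, TK1, DUT, RRM1, RRM2, RRM2B, DCTD and SAMHD1. All probes of the array whose annotated gene symbol was one of these were taken, which gave 15 probes of 48803, for 9 of 18665 annotated genes. HEK293 is a human embryonic kidney line. The lines expressed FLAG-tagged ALKBH7 or FLAG-tagged ALKBH4, which belong to the AlkB family of iron-dependent dioxygenases, from a tetracycline-inducible promoter at one genomic site, and each was expanded from single resistant colonies. Induced cells of the ALKBH7 line had received 2 µg/ml doxycycline, and uninduced cells of the ALKBH7 line had not. The same held for induced and uninduced cells of the ALKBH4 line. All 4 groups were grown with hygromycin B and blasticidin-S in tetracycline-free serum. Doxycycline was added at approximately 50% confluence, with harvest after 48 hours. No line without a transgene was analysed here, so within a line doxycycline and the transgene cannot be told apart. The induction comparisons asked which transcripts change when the transgene is expressed.

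DNA synthesis needs the 4 deoxynucleoside triphosphates in balanced supply. Ribonucleotide reductase, built from the large subunit RRM1 and a small subunit, either RRM2 or RRM2B, turns ribonucleotides into deoxyribonucleotides. The thymidine branch starts from dUMP, which DUT makes from dUTP and DCTD makes from dCMP, and TYMS methylates it to dTMP with a folate cofactor. TK1 makes dTMP from salvaged thymidine. Both routes meet at DTYMK, which phosphorylates dTMP to dTDP. SAMHD1 works in the opposite direction and cleaves deoxynucleoside triphosphates. TK1, TYMS and RRM2 are classic genes of the late G1 and S phases, whereas RRM2B is a p53 target that serves resting and DNA-damaged cells.

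RNA was hybridised to Illumina HumanWG-6 v3 BeadChips, with 3 arrays for each of the 4 groups. Median intensity per array, in arbitrary units, was 98.9 to 121 in the ALKBH7 line and 45.6 to 61.6 in the ALKBH4 line, and 25.3 to 30.7% of probes were detected (detection p under 0.01). Log2 levels below are intensities after quantile normalisation of all 12 arrays together, and errors are SD over 3 arrays for levels and standard errors for log2 fold changes. The labels call the arrays of a group replicates without saying whether they came from separate cultures, so the p-values measure the spread between these samples, which may be technical. Of 10 marker genes of HEK293 lines 8 were detected in at least 3 arrays, against 1 of 5 fibroblast, 1 of 5 blood, 1 of 3 endothelial and 0 of 3 hepatocyte markers. The ALKBH7 probe was 3.72 ± 0.17 higher on the log2 scale in induced than in uninduced cells of the ALKBH7 line (adjusted p = 1.01e-07). The ALKBH4 probe lies in an untranslated region, outside the transgene, and cannot check it. It differed by -0.12 ± 0.20 upon induction of ALKBH4 (adjusted p = 0.999).

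Of the 15 probes, 12 passed the filter of detection in at least 3 arrays and were tested, and these covered 8 of the 9 genes. The probes ILMN_1716445 (DTYMK), ILMN_1806040 (TYMS), ILMN_1806037 (TK1), ILMN_1732688 and ILMN_2374778 (both DUT), ILMN_1771593 (RRM1) and ILMN_1802456 (DCTD) were detected on all 12 arrays. A further 5 were detected on 4 to 9 arrays. SAMHD1 (ILMN_1721026) was detected on 1 of 12 arrays, uninduced ALKBH4 replicate 1, with at most 119 units on any array, and was not tested. The other 2 untested probes were both for DTYMK and are described with that gene.

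**Figure D1:**
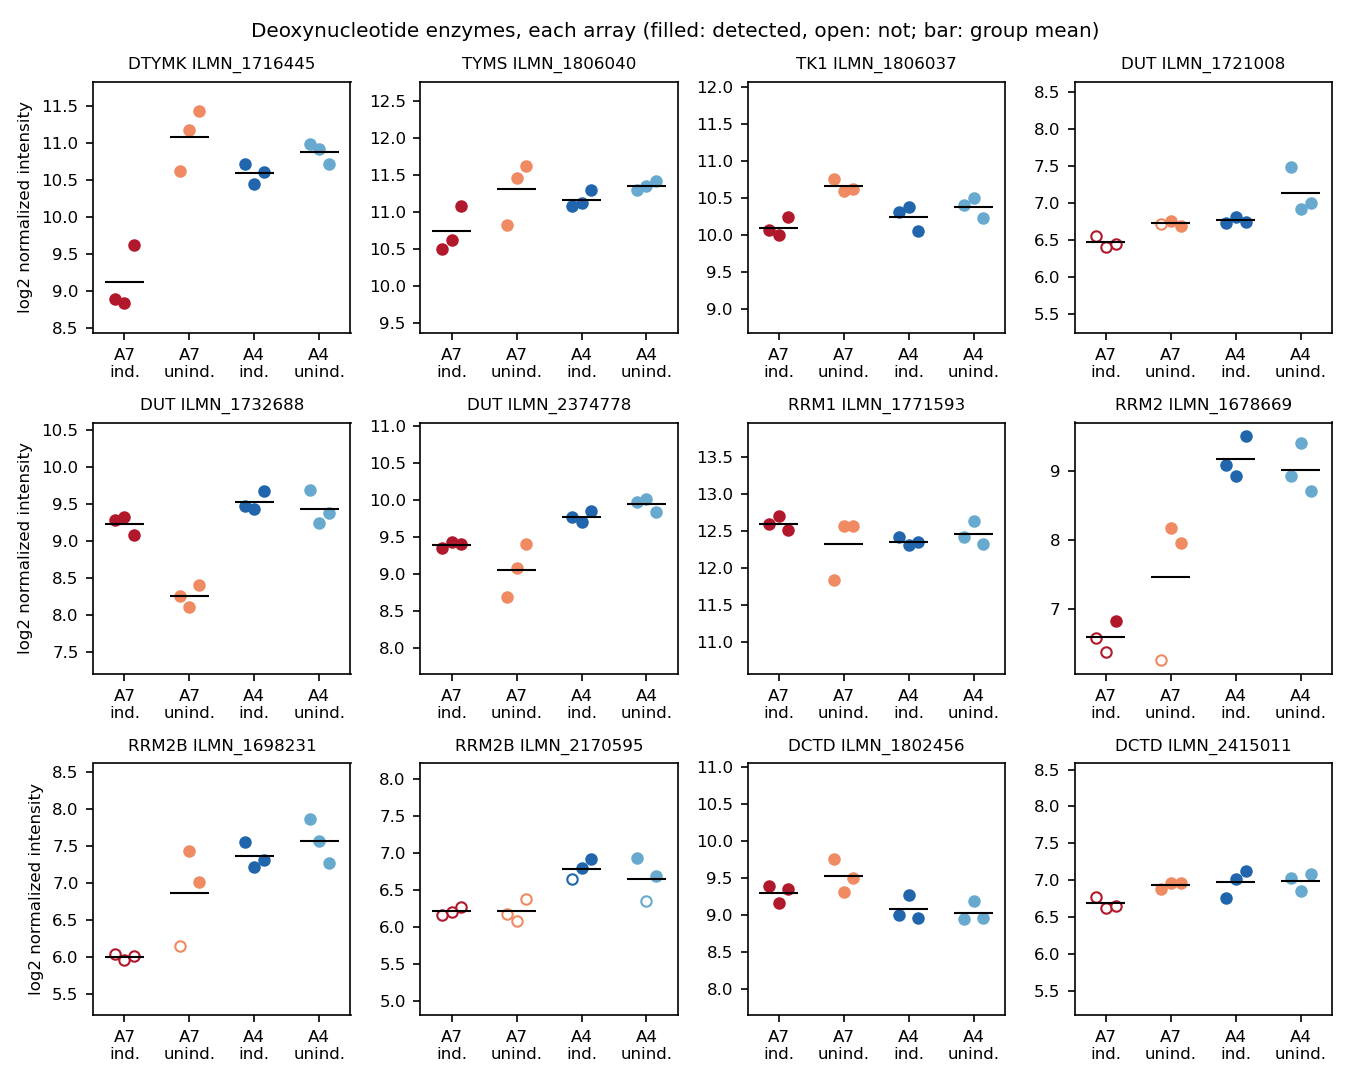
Log2 normalised intensity of the 12 tested probes on each array (y axis, a separate range in each panel); A7 and A4 stand for the ALKBH7 and ALKBH4 lines, ind. and unind. for induced and uninduced. Each point is an array, filled where the probe was detected and open where it was not, and bars are group means; DTYMK lies between 8.83 and 9.62 in induced ALKBH7 cells and between 10.44 and 11.43 on the other 9 arrays.

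DTYMK fell upon induction of ALKBH7, by a larger amount than any other tested probe of these enzymes. Its detected probe, ILMN_1716445, had log2 levels of 8.88, 8.83 and 9.62 in induced ALKBH7 cells, against 10.62, 11.17 and 11.43 in uninduced ALKBH7 cells. The groups did not overlap, and induced replicate 3 stood above the other induced arrays. The log2 fold change was -1.96 ± 0.22, which is 3.90-fold lower (95% confidence interval -2.45 to -1.48, adjusted p = 0.000843). Among the 15444 tested probes this was rank 12 by p-value and the 9th lowest log2 fold change. With median scaling of the arrays, under which 1 probe of 15444 passed, DTYMK had -1.67 (adjusted p = 0.161). The probe stood at a mean percentile of 91.0 of all probes on the induced arrays and 97.4 on the uninduced arrays, a measure that no scaling of an array can move (exact two-sided permutation test, p = 0.1, the smallest that 3 against 3 arrays allow).

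In the ALKBH4 line the same DTYMK probe had log2 levels of 10.71, 10.44 and 10.61 in induced cells and 10.98, 10.91 and 10.71 in uninduced cells. These groups overlapped, and the log2 fold change was -0.28 ± 0.22 (95% confidence interval -0.77 to 0.20, adjusted p = 0.999). By group mean the order of DTYMK was uninduced ALKBH7 cells (11.07 ± 0.41), uninduced ALKBH4 cells (10.87 ± 0.14), induced ALKBH4 cells (10.59 ± 0.14) and induced ALKBH7 cells (9.11 ± 0.44). The first neighbours in this order differed by 0.20 ± 0.22 (adjusted p = 0.494) and overlapped, as did the next pair. No array of induced ALKBH7 cells reached the lowest array of any other group.

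The remaining probes annotated to DTYMK could not be used to check this change. ILMN_1814820 was detected on 0 of 3 induced ALKBH7 arrays (100.4, 123 and 147 units), against 2 of 3 uninduced ALKBH7 arrays (134, 109 and 157 units), and on none of the ALKBH4 line. ILMN_2152768 was detected on 0 of 12 arrays, at 36.4 to 119 units. Before normalisation the detected probe gave 522, 533 and 1166 units in induced ALKBH7 cells and 1336, 1694 and 3723 units in uninduced ALKBH7 cells. Even on this unscaled measure the brightest induced array was below the dimmest uninduced array. Which transcripts each DTYMK probe detects was not tested. Among the genes lowered most with ALKBH7, the study itself lists an entry described as similar to deoxythymidylate kinase. In the normalised values of the authors, ILMN_1716445 had a mean log2 level of 9.24 in induced and 11.19 in uninduced ALKBH7 cells. That fall has the size the study lists for the entry. Whether ILMN_1716445 is the probe of that entry was not tested, so the entry is not counted as a separate observation.

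**Figure D2:**
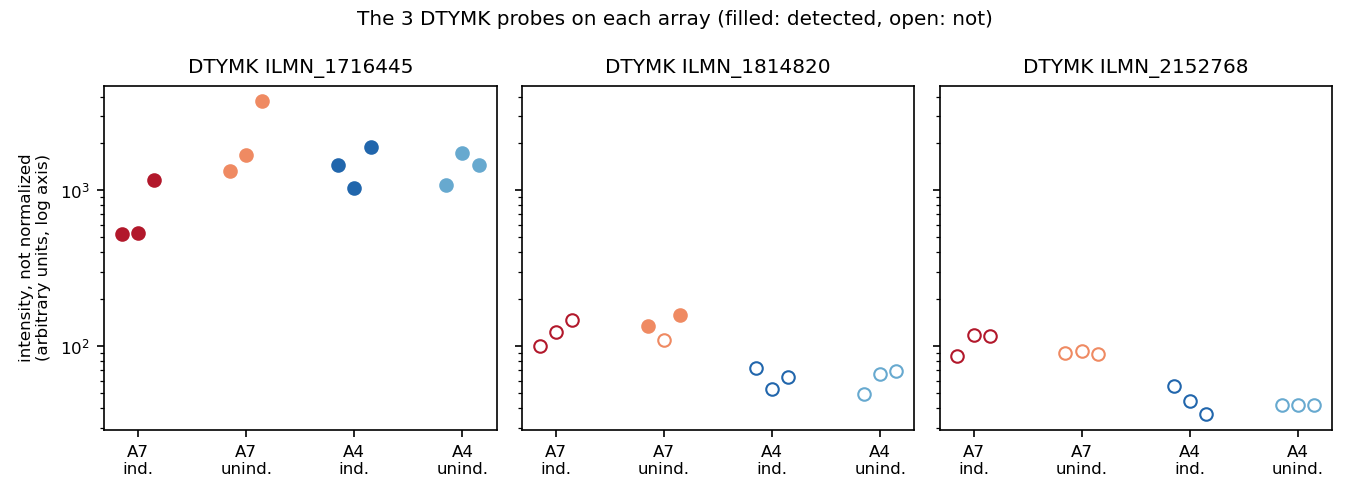
Intensity without normalisation (arbitrary units, log axis) of the 3 DTYMK probes on each of the 12 arrays; A7 and A4 stand for the ALKBH7 and ALKBH4 lines, filled points were detected and open points were not. ILMN_1716445 ranges from 522 to 3723 units and the other probes stay at or below 157 units.

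Of the enzymes that feed dTMP to DTYMK, the salvage kinase TK1 fell upon induction of ALKBH7. Its log2 levels were 10.07, 10.00 and 10.24 in induced ALKBH7 cells, against 10.76, 10.59 and 10.63 in uninduced ALKBH7 cells. The groups did not overlap, with a log2 fold change of -0.56 ± 0.13 (1.47-fold lower, adjusted p = 0.0105), and the call was lost without induced replicate 2 (adjusted p = 0.0619). TYMS, the enzyme of the main route, had 10.51, 10.63 and 11.09 in induced ALKBH7 cells and 10.83, 11.47 and 11.63 in uninduced ALKBH7 cells. Here uninduced replicate 1 lay below induced replicate 3, and the log2 fold change of -0.57 ± 0.20 did not pass the test (adjusted p = 0.0526). Without uninduced replicate 1 it was -0.80 (adjusted p = 0.00107), and without induced replicate 3 it was -0.74 (adjusted p = 0.0264). With array weights it was -0.90 (adjusted p = 4.77e-05).

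DUT, which removes dUTP and so supplies dUMP, was measured by 3 probes that did not move together. The probe ILMN_1732688 rose upon induction of ALKBH7, with log2 levels of 9.28, 9.32 and 9.08 in induced ALKBH7 cells and 8.25, 8.11 and 8.41 in uninduced ALKBH7 cells. The log2 fold change was 0.97 ± 0.14 (1.96-fold, adjusted p = 0.00153), with no overlap between the groups. ILMN_2374778 had 9.34, 9.42 and 9.40 in induced ALKBH7 cells, against 8.68, 9.07 and 9.40 in uninduced ALKBH7 cells, a log2 fold change of 0.34 ± 0.16 (adjusted p = 0.129) that passed only without uninduced replicate 3 (0.52, adjusted p = 0.0361). The dim probe ILMN_1721008 was detected on no induced ALKBH7 array and on 2 of 3 uninduced ALKBH7 arrays, at 6.40 to 6.56 in induced cells and 6.69 to 6.76 in uninduced cells (adjusted p = 0.203), too dim for a bound on its fold change. Which DUT transcripts each probe detects was not tested. DCTD, the deaminase that makes dUMP from dCMP, gave -0.22 ± 0.15 (adjusted p = 0.284) at ILMN_1802456, with 9.16 to 9.39 in induced and 9.31 to 9.75 in uninduced ALKBH7 cells. Its dimmer probe, ILMN_2415011, was not detected on any induced ALKBH7 array but was on all 3 uninduced ALKBH7 arrays, which allows that uninduced cells were at least 1.10-fold higher (adjusted p = 0.160). Such a bound sets the mean of the detected group against the lowest signal among detected probes of each array of the other group.

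Among the subunits of ribonucleotide reductase the large and small subunits were not alike in detection or in spread. RRM1 had log2 levels of 12.59, 12.70 and 12.52 in induced ALKBH7 cells and 11.84, 12.58 and 12.58 in uninduced ALKBH7 cells, and its log2 fold change of 0.27 ± 0.18 did not pass (adjusted p = 0.274). RRM2 had 6.57, 6.36 and 6.82 in induced ALKBH7 cells, where 1 of 3 arrays detected it, and 6.24, 8.17 and 7.96 in uninduced ALKBH7 cells, where replicate 1 did not detect it. The log2 fold change was -0.88 ± 0.39 (adjusted p = 0.111). Without that replicate it was -1.52 (adjusted p = 7.84e-05), and with all arrays kept it passed under cyclic loess (-0.93, adjusted p = 0.0492) and with array weights (-1.43, adjusted p = 1.15e-05).

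RRM2B, the alternative small subunit, fell at ILMN_1698231, with 6.03, 5.96 and 6.01 in induced ALKBH7 cells and 6.14, 7.43 and 7.01 in uninduced ALKBH7 cells. No induced array and 2 of 3 uninduced arrays detected it. The fitted log2 fold change was -0.86 ± 0.26 (adjusted p = 0.0283), while by detection uninduced cells were at least 1.04-fold higher. The call was lost without uninduced replicate 2 (-0.59, adjusted p = 0.123) or 3 (-0.77, adjusted p = 0.0880) and without induced replicate 1, 2 or 3 (adjusted p = 0.0805, 0.0946 and 0.0604). Its second probe, ILMN_2170595, was not detected on any array of the ALKBH7 line and gave no usable fold change there. Uninduced ALKBH7 replicate 1 was the lowest of its group for DTYMK, TYMS, RRM1, RRM2, RRM2B at ILMN_1698231, DUT at ILMN_2374778 and DCTD at ILMN_2415011, and the highest for TK1 and for DCTD at ILMN_1802456. Over all tested probes this array had a mean Pearson's r of 0.940 with its own group and 0.967 with induced ALKBH7 arrays. For uninduced replicates 2 and 3 these values were 0.964 and 0.930, and 0.966 and 0.937. ALKBH7 itself stood at 9.66 on uninduced replicate 1, against 9.19 and 9.12 on replicates 2 and 3. The cause was not tested.

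Counted over the ALKBH7 induction, 4 of the 12 tested probes passed, 1 higher and 3 lower, where 24% of all 15444 tested probes passed, 11.8% higher and 12.2% lower. With cyclic loess in place of quantile normalisation the calls over all probes were 1307 higher and 2039 lower, against 1824 higher and 1886 lower here, and for the members 1 higher and 4 lower. The groups did not overlap at 6 of the 12 probes, where the share over all tested probes was 36.7%. With median scaling 0 of the 12 passed. The median log2 fold change was -0.25 over the 12 probes and 0.02 over all tested probes. By the rank product test of the study, rerun here on the tested probes at its thresholds, 1 member passed, DTYMK, with a q-value of 0.25 percent, of 173 probes higher and 116 lower. The study itself reports more genes in both directions.

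**Figure D3:**
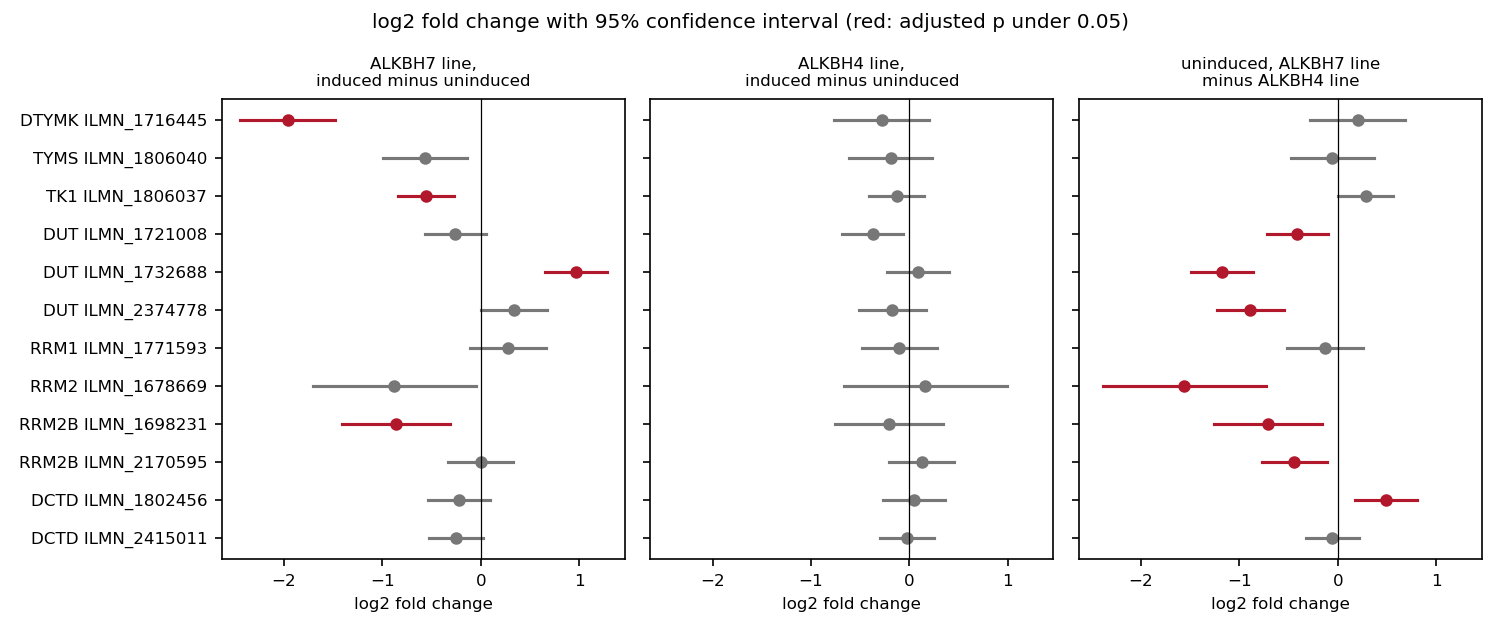
Log2 fold change (x axis) of the 12 tested probes for ALKBH7 induction, ALKBH4 induction and the uninduced ALKBH7 line against the uninduced ALKBH4 line; points are limma estimates, lines are 95% confidence intervals, and red marks an adjusted p under 0.05. DTYMK lies at -1.96 in the left panel, and the number of red probes is 4, 0 and 7 from left to right.

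The sequences before the start sites are shown for members other than RRM2B that changed or came near to the threshold upon induction of ALKBH7, and for RRM1 as a member that did not. RefSeq promoter windows of 300 bases (GRCh38.p14, 250 bases before to 50 after a start) were found for 8 of the 9 genes. RRM2B had no window and was not searched. The CCAAT box, the binding site of the factor NF-Y, was searched as CCAAT on both strands. E2F sites, typical of S phase genes, were searched as TTTGGCGC, TTTCCCGC, TTTGCCGC or TTTCGCGC on both strands, and no match of one motif overlapped one of the other. DTYMK, TYMS and RRM1 are given from 130 bases upstream to the base before the start, and TK1, RRM2 and DUT as short stretches around their matches because these genes have more than 1 annotated start. Capitals mark matches.
DTYMK, chr2:241686816-241686945, minus strand: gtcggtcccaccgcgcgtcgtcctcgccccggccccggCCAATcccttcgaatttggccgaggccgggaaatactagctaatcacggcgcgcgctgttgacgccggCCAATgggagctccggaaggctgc
TYMS, chr18:657523-657652, plus strand: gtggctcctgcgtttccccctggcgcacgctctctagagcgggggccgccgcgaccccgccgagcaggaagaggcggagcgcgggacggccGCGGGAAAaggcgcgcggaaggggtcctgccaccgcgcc
RRM1, chr11:4094555-4094684, plus strand: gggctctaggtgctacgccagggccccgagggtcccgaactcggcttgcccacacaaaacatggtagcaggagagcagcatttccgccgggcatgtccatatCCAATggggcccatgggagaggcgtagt
TK1, first match, chr17:78187117-78187137, minus strand: gggcgctgATTGGccccatgg
TK1, second match, chr17:78187086-78187106, minus strand: ggctcgtgATTGGccagcacg
RRM2, first match, chr2:10122608-10122628, plus strand: aggcgcagCCAATgggaaggg
RRM2, second match, chr2:10122638-10122658, plus strand: tggcacagCCAATgggaaggg
RRM2, last match, chr2:10122665-10122685, plus strand: caccaaagCCAATgggaaggg
DUT, chr15:48332151-48332180, plus strand: gctgGCGGGAAAtttcggtTTTGGCGCgct

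DTYMK held the CCAAT box 92 and 24 bases upstream of its start, TK1 77 and 46 bases upstream, RRM2 123, 93 and 66 bases upstream of one start and once more, 249 bases upstream of its other start (not shown), and RRM1 once, 28 bases upstream. SAMHD1, which was hardly detected, held it as well. These were 5 of the 8 genes and 6 of their 14 windows, where 39.7% of all 27305 genes and 34.6% of all 35116 windows held a CCAAT box. An E2F match was found at TYMS, 39 bases upstream, and at DUT, 42 and 27 bases upstream, which made 2 of the 8 genes and 2 of the 14 windows, where 3.99% of all genes and 3.31% of all windows held one. The CCAAT box was thus present at DTYMK and TK1, which fell upon induction of ALKBH7, and also at RRM1, whose difference of 0.27 did not pass the test.

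Upon induction of ALKBH4 no member passed, 0 of 12, where 0% of all tested probes passed in limma (376 of 15444 at an unadjusted p under 0.05). The rank product test of the study, rerun here on the tested probes, passed 1 probe higher and 3 lower, none of them a member. The study itself reports more genes in both directions. The log2 fold changes of the members ran between -0.37 and 0.16. TK1 had log2 levels of 10.31, 10.38 and 10.06 in induced ALKBH4 cells and 10.40, 10.49 and 10.23 in uninduced ALKBH4 cells (-0.13 ± 0.13, 95% confidence interval -0.41 to 0.16). TYMS had 11.09, 11.13 and 11.31 in induced and 11.31, 11.36 and 11.43 in uninduced ALKBH4 cells (-0.19 ± 0.20). RRM2, detected on all 6 arrays of this line, had 9.10, 8.94 and 9.51 in induced and 8.93, 9.42 and 8.71 in uninduced ALKBH4 cells (0.16 ± 0.39). The groups of TK1, TYMS and RRM2 overlapped. DUT at ILMN_1732688, the probe that rose upon induction of ALKBH7, had 9.47, 9.43 and 9.67 in induced and 9.69, 9.24 and 9.38 in uninduced ALKBH4 cells (0.09 ± 0.14). RRM1 had 12.42, 12.31 and 12.35 in induced and 12.42, 12.64 and 12.33 in uninduced ALKBH4 cells (-0.10 ± 0.18). RRM2B at ILMN_1698231 was detected on all 6 arrays of this line, at 7.55, 7.21 and 7.31 in induced and 7.86, 7.57 and 7.26 in uninduced ALKBH4 cells (-0.21 ± 0.26). These groups overlapped as well. The lone member without overlap, against 10% of all tested probes, was the dim DUT probe ILMN_1721008, at 6.73, 6.82 and 6.75 in induced and 7.49, 6.92 and 7.01 in uninduced ALKBH4 cells (-0.37 ± 0.14, adjusted p = 0.999).

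Whether the members responded differently in the 2 lines was tested as the difference between the induction responses. None of the 12 passed, where 0.0712% of all tested probes passed, and 4 of the 12 had an unadjusted p under 0.05. DTYMK came nearest, with a difference of -1.68 ± 0.32 (95% confidence interval -2.37 to -0.996, adjusted p = 0.0578), followed by DUT at ILMN_1732688 with 0.88 ± 0.20 (adjusted p = 0.0701). For TK1 the difference was -0.43 ± 0.19 (adjusted p = 0.264) and for RRM2 -1.04 ± 0.55 (adjusted p = 0.349). Without uninduced ALKBH7 replicate 1, DTYMK (-1.91, adjusted p = 0.000439), DUT at ILMN_1732688 (0.88, adjusted p = 0.00897), RRM2 (-1.68, adjusted p = 0.00128) and RRM2B at ILMN_1698231 (-1.04, adjusted p = 0.00723) passed, in a fit where 1462 probes were higher and 1877 lower of 15285. Without induced ALKBH7 replicate 3 only DTYMK did (-1.93, adjusted p = 0.0388), where 18 probes were higher and 28 lower of 15311.

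Before induction the lines already differed past the test in at least 1 probe each of RRM2, DUT, RRM2B and DCTD. The arrays of the lines also differed in brightness throughout. ALKBH7 itself was 1.53 ± 0.17 higher on the log2 scale in uninduced ALKBH7 cells than in uninduced ALKBH4 cells (adjusted p = 5.21e-05), without overlap. The parts of the line, of its ALKBH7 level and of the arrays in these values cannot be told apart. RRM2 was lower in the ALKBH7 line, at 6.24, 8.17 and 7.96 in uninduced ALKBH7 cells against 8.93, 9.42 and 8.71 in uninduced ALKBH4 cells (-1.56 ± 0.39, 2.95-fold lower, adjusted p = 0.00717). Without uninduced ALKBH7 replicate 1, on which RRM2 was not detected, the difference was -0.96 (adjusted p = 0.00291). DUT was lower at all 3 probes, with log2 differences of -1.18 ± 0.14 at ILMN_1732688 (adjusted p = 0.000101), -0.89 ± 0.16 at ILMN_2374778 (adjusted p = 0.00104) and -0.41 ± 0.14 at ILMN_1721008 (adjusted p = 0.0381), where normalisation within each line turned the sign. The DUT probe ILMN_1732688 had 8.25, 8.11 and 8.41 in uninduced ALKBH7 cells, against 9.69, 9.24 and 9.38 in uninduced ALKBH4 cells, with no overlap. RRM2B was lower at ILMN_1698231 (-0.71 ± 0.26, adjusted p = 0.0431), where uninduced ALKBH7 replicate 2 lay within the range of the ALKBH4 line and where quantile normalisation within each line turned the sign. Its probe ILMN_2170595 had an adjusted p of 0.0361, but it entered the test through 4 arrays of the ALKBH4 line alone and was too dim for a bound on its fold change, so nothing is read from it. DCTD was higher at ILMN_1802456, with 9.75, 9.31 and 9.49 in uninduced ALKBH7 cells and 8.94, 9.18 and 8.95 in uninduced ALKBH4 cells (0.49 ± 0.15, adjusted p = 0.0178). With median scaling this probe gave 0.14 (adjusted p = 0.790). The dimmer DCTD probe, ILMN_2415011, differed by -0.05 ± 0.13 (adjusted p = 0.754), so the probes of DCTD did not give 1 answer.

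In all, 7 of the 12 probes passed between the uninduced lines, 1 higher and 6 lower including RRM2B at ILMN_2170595, where 38.4% of all tested probes passed, 19.9% higher and 18.5% lower, and 6 of the 12 did not overlap, against 43.8%. The split depends on the scaling, with 6 higher and 3 lower after quantile normalisation within each line, 3 higher and 3 lower in the normalised values of the authors, and 0 higher and 3 lower with median scaling, settings in which the median over all tested probes was 0.66, 0.47 and -0.24. RRM2 and the DUT probes ILMN_1732688 and ILMN_2374778 were lower under every setting in which they were fitted, whereas DUT at ILMN_1721008 and RRM2B turned positive in at least 1 of them. DTYMK did not differ past the test between the uninduced lines (0.20 ± 0.22), nor did TYMS (-0.05 ± 0.20) or RRM1 (-0.13 ± 0.18), although DTYMK passed with quantile normalisation within each line and with array weights. TK1 was measured 0.28 ± 0.13 higher in the ALKBH7 line without overlap (adjusted p = 0.103), and passed with quantile normalisation within each line (0.72, adjusted p = 0.000290), in the normalised values of the authors (0.49, adjusted p = 0.00670) and with array weights (0.34, adjusted p = 0.0274). Without uninduced ALKBH4 replicate 1, 3 of the 12 passed, and without induced ALKBH7 replicate 1, which enters through the shared spread and the normalisation, 4 did. Of the 12 fits that left out 1 array, RRM2B lost its call in 10 at ILMN_1698231 and in 5 at ILMN_2170595, and DUT in 8 at ILMN_1721008, while DCTD at ILMN_1802456 lost it without uninduced ALKBH4 replicate 1 or 3 (adjusted p = 0.0608 and 0.0606).

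Genes of the neighbouring pathways, each at its brightest tested probe, were set beside the members. Over the 10159 genes with a tested probe 12.4% rose and 10.4% fell upon induction of ALKBH7. Of 14 salvage and nucleotide kinases with a tested probe 0 rose and 3 fell. They were DCK (-1.43 ± 0.39), the kinase of deoxycytidine and purine deoxynucleosides, the mitochondrial thymidine kinase TK2 (-0.51 ± 0.13, detected on 1 of 3 induced arrays) and the nucleoside diphosphate kinase NME4 (-0.45 ± 0.14). Another DCK probe, ILMN_2117240, differed by -0.05 (adjusted p = 0.817), so the probes of DCK did not give 1 answer. Of 12 nucleotidases and related enzymes 1 fell, the mitochondrial nucleotidase NT5M (-0.81 ± 0.15). In the salvage list 0 passed without induced ALKBH7 replicate 1 or 2, 1 fell without uninduced replicate 2, 1 rose and 1 fell without uninduced replicate 3, and 3 rose and 3 fell without uninduced replicate 1.

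Of 11 folate cycle genes 2 rose and 2 fell upon induction of ALKBH7. SHMT2, the mitochondrial serine hydroxymethyltransferase, fell (-0.70 ± 0.17), as did MTHFS (-0.43 ± 0.14), while MTR, the methionine synthase, rose (0.60 ± 0.16), as did the cytosolic SHMT1 (0.34 ± 0.11). The other SHMT1 probes gave -0.41 (adjusted p = 0.127) and 0.15 (adjusted p = 0.467). Of 4 pyrimidine ribonucleotide genes DHODH alone passed at the brightest probe (adjusted p = 0.0451). It was detected on 0 of 3 induced and 2 of 3 uninduced ALKBH7 arrays, so that uninduced cells were at least 1.12-fold higher. Of 14 purine ribonucleotide genes 2 rose at the brightest probe, PFAS (0.88 ± 0.23) and PRPS2 (0.83 ± 0.14), and 0 fell. A dimmer probe of HPRT1 in this list did fall (-0.94, adjusted p = 0.0120). The same held for CTPS2 of the pyrimidine list (-0.46, adjusted p = 0.0356) and MTRR of the folate list (-0.83, adjusted p = 0.0310). Of 5 electron donors of ribonucleotide reductase only the glutaredoxin GLRX passed at its brightest probe (0.63 ± 0.21). In that list dimmer probes of TXN (0.66, adjusted p = 0.0321) and TXNRD1 (-1.48, adjusted p = 0.0409) passed as well. With median scaling no gene of these lists passed.

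**Figure D4:**
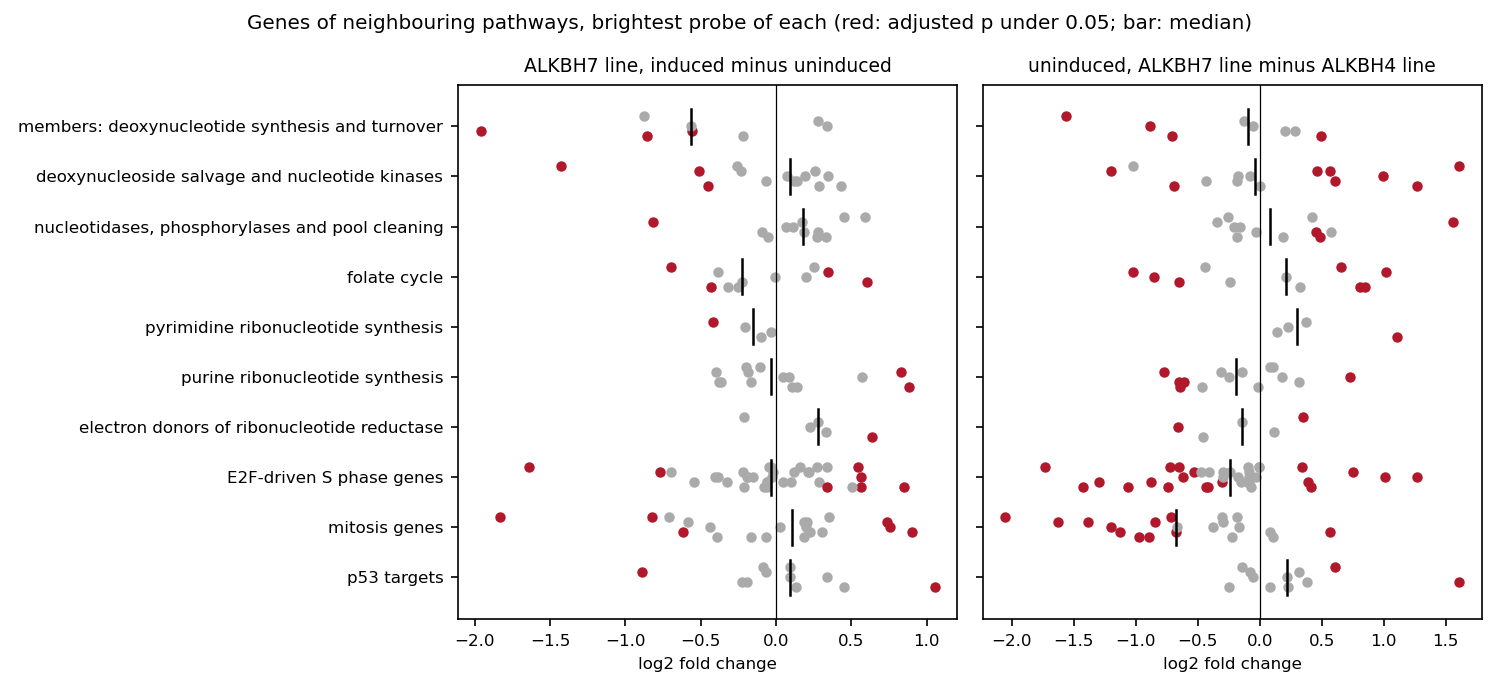
Log2 fold change (x axis) of each gene of 10 lists at its brightest tested probe, for ALKBH7 induction (left) and the uninduced ALKBH7 line against the uninduced ALKBH4 line (right); red points had an adjusted p under 0.05 and bars are list medians. The list of deoxynucleotide enzymes has its median at -0.56 on the left and -0.09 on the right, and mitosis genes have theirs at -0.67 on the right.

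Lists of cell cycle and p53 target genes were read in the same way. Of 35 E2F-driven S phase genes 5 rose and 2 fell upon induction of ALKBH7 (median -0.04), among them CCNE1, cyclin E1 (0.85 ± 0.13), CHAF1B (0.56 ± 0.11), UHRF1 (-1.64 ± 0.38) and the clamp loader subunit RFC4 (-0.77 ± 0.23). Of 20 mitosis genes 3 rose and 3 fell (median 0.10), among them the checkpoint gene MAD2L1 (-1.83 ± 0.38), TPX2 (-0.83 ± 0.23), CCNB1, cyclin B1 (0.90 ± 0.26) and BIRC5 (0.75 ± 0.18). The brightest probe and a second one disagreed at MAD2L1 (second probe 0.01, adjusted p = 0.966), CCNE1 (0.04, adjusted p = 0.877) and RFC4 (0.43, adjusted p = 0.0532). At UHRF1 (-0.58, adjusted p = 0.128) and BIRC5 (0.30, adjusted p = 0.146) the second probe had the same sign and did not pass. PCNA, of the S phase list, fell at its second probe (-0.70, adjusted p = 0.0365) and did not pass at its brightest (0.34, adjusted p = 0.326). Of 11 p53 targets 1 rose, ZMAT3 (1.05 ± 0.30, where another probe gave -0.90, adjusted p = 0.0116), and 1 fell, GADD45A (-0.89 ± 0.15).

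Between the uninduced lines 10 of the 20 mitosis genes were lower and 1 higher in the ALKBH7 line (median -0.67), where 17% of all genes were lower and 21.7% higher. The mitotic kinase CDK1 differed by -2.05 ± 0.31, the checkpoint kinase BUB1 by -1.63 ± 0.17 and CDC20 by -1.39 ± 0.18. Of the 35 S phase genes 13 were lower, among them the sliding clamp PCNA (-1.74 ± 0.24), and 6 were higher, among them the DNA ligase LIG1 (1.27 ± 0.15). With quantile normalisation within each line 6 mitosis genes were lower and 3 higher, and 4 S phase genes were lower and 11 higher, with list medians of -0.02 and 0.17 where the median of all probes was 0.66. Of 14 salvage and nucleotide kinases 6 were higher and 2 lower in the ALKBH7 line. Among them NME3 (1.61 ± 0.14) and NME4 (1.27 ± 0.14) were higher. CMPK1 was lower (-1.20, adjusted p = 0.000792), also at its second probe (-1.03, adjusted p = 0.000956). From other lists NT5M (1.56 ± 0.15) and CAD (1.11 ± 0.23), the first enzyme of pyrimidine synthesis, were higher. The part of these differences in those of RRM2 and DUT was not tested.

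Upon induction of ALKBH4 no gene of these lists passed the test, and the same held for the difference between the induction responses.

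Probes whose log2 level followed that of DTYMK most closely over the 12 arrays were SDHAF1 (Pearson's r = 0.986), an assembly factor of succinate dehydrogenase, ABCF2 (0.973), PINX1 (0.969), TGIF1 (0.969) and TCHP (0.968). All 5 fell upon induction of ALKBH7, with log2 fold changes between -1.48 (SDHAF1) and -0.50 (TCHP). Because DTYMK itself fell there, choosing probes by r over these arrays favours such falls, and nothing further is read from them. When each group's mean was first taken away, the closest probes were EEF1G (0.989), SMG9 (0.949), TUBA1A (0.935), TNFAIP1 (0.934) and SDHAF1 (0.930), so SDHAF1 was in both sets. Of the members, TYMS was nearest to DTYMK on both measures (0.876 for levels, 0.861 for deviations), and DUT at ILMN_1732688 was the farthest by level (-0.30, and -0.07 for deviations). All these values come from the same 12 arrays and share their brightness and normalisation.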

How the data were processed

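Biotin-labelled cRNA from 12 samples was hybridised to Illumina HumanWG-6 v3 BeadChips. The deposited bead table holds intensities exported by the authors from GenomeStudio without normalisation, and a detection p-value per probe that the same software computed against negative control beads. A second deposited table holds the intensities the authors quantile-normalised in J-Express, and it served as an alternative. The study does not say whether the lines were normalised together. In those values the uninduced lines still differed by a median of 0.47 on the log2 scale over the tested probes. Of 48803 probes the platform annotation gives 27578 a single gene symbol, 13 several and 21212 none. No per-sample column was left unmapped.

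Intensities of all 12 arrays were quantile-normalised together without background correction and taken to log2. Probes with a detection p-value under 0.01 in at least 3 arrays (15444) were fitted with limma 3.58.1 in R 4.3.3 (lmFit with 4 group means, eBayes), with Benjamini-Hochberg adjustment over all of them and a threshold of 0.05. A probe detected on no array of a group has only a bound there. Rank products over the 9 pairs of arrays used 100 permutations. The code was tested on simulated data. The array number limits precision.

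The enzymes, the gene lists and the tests were chosen with earlier results of these data known. All probes of the 9 enzymes are described. Of each list up to 4 genes past the test with the largest change are named at the brightest probe, and the 5 probes most like DTYMK by Pearson's r. Promoter windows are those of RefSeq, and motifs were matched in Python 3.11.15.

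Alternatives covered background correction, normalisation, detection filter, offset, moderation, array weights, each line fitted alone, replicate number as a block, rank products, other thresholds and leaving out each array.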

Additional observations from a re-analysis of the deposited data

How the results depend on the processing

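For ALKBH7 induction, 4 member probes passed in the reported analysis, 0 with median scaling, 2 at an adjusted p under 0.01, and 1 by rank products with or without the fold threshold (DTYMK). Leaving out 1 array gave 2 to 6, with 2 without induced ALKBH7 replicate 2 and 6 without uninduced ALKBH7 replicate 1. Over all probes 3710 passed (1824 higher, 1886 lower), against 1 with median scaling, 1307 higher and 2039 lower with cyclic loess, 940 higher and 810 lower with each line alone, 4419 higher and 4165 lower with array weights, 3380 higher and 3412 lower without uninduced ALKBH7 replicate 1, and 574 higher and 651 lower without induced ALKBH7 replicate 2. DTYMK stayed between -2.30 and -1.67 and passed in 24 of 25 fits. For ALKBH4 induction 0 member probes passed in every setting run. For the difference between the responses 0 passed, against 1 with trended robust moderation, 6 with array weights, 2 at an adjusted p under 0.1, and 0 to 4 leaving out 1 array (4 without uninduced ALKBH7 replicate 1, 1 without induced ALKBH7 replicate 3). Between the uninduced lines 7 passed, against 3 with median scaling, 3 with detection required on all 12 arrays (fewer member probes tested), 3 at an adjusted p under 0.01, and 3 to 6 leaving out 1 array. There the sign turned with quantile normalisation within each line for DUT at ILMN_1721008 (0.40), RRM2B at ILMN_1698231 (0.046) and ILMN_2170595 (0.50) and DCTD at ILMN_2415011 (0.74), and in the authors' normalised values for DUT at ILMN_1721008 (0.25), RRM2B at ILMN_2170595 (0.44) and DCTD at ILMN_2415011 (0.58). Both leave the overall brightness of the lines apart. The cause of the other changes was not tested. A background level taken from the detection p-values, chosen after seeing the data, gave 4 calls for ALKBH7 induction.

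The titles number the replicates, but arrays of the same number did not deviate together throughout (r of 0.41, -0.12 and 0.17 in the ALKBH7 line, -0.13, 0.26 and 0.11 in the ALKBH4 line). With the replicate number as a block 5 member probes passed for ALKBH7 induction, TYMS in addition (adjusted p = 0.0275), 0 for ALKBH4 induction, 0 for the difference and 6 between the uninduced lines. A chip block was not run because the column headers name no chip.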
